A study of Mus musculus with 5 samples.

Results

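Mcpt1, Mcpt2, Mcpt4, Mcpt8, Cma1, Ctsg, Gzmb and Gzmc encode serine proteases that blood-derived cells store in granules, and in the mouse they lie in one cluster of related genes, the chymase locus of chromosome 14. These 8 genes were taken from 19937 genes that a probe set measures under 1 symbol alone. Each of the 8 had 1 such probe set. The set was chosen by the log2 differences of Mcpt2 and Mcpt8, which were among the largest rises after Grhl2 shRNA on these same arrays, and the other 6 were added as their relatives. Their differences between the groups are therefore a description. Whether a member passed the fit over all genes is listed below because the same fit gives the other genes, and it is not evidence about the members.

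RNA came from MLE-15 cells, a mouse lung epithelial line. It was grown out of tumours of mice with a transgene for the SV40 large tumour antigen, driven by the promoter of human surfactant protein C. The knockdown cells carried a lentivirus with a GFP reporter and an shRNA against Grhl2, which encodes a transcription factor of epithelia (3 arrays). The control cells carried the same kind of lentivirus with a non-targeting shRNA (2 arrays). In both groups the virus was applied for 16 h, with polybrene at 5 µg/ml and a multiplicity of infection of 50, and 6 days of puromycin at 5 µg/ml followed, so vector, reporter and selection are common to all arrays. The labels call each sample an independent transduction, and they name a single hairpin against Grhl2. Values are RMA log2 signals on whole-transcript Affymetrix arrays.

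The proteases of this locus are made as inactive precursors, trimmed by the cysteine protease cathepsin C and packed in secretory granules on the proteoglycan serglycin. Mast cells store chymases, which cleave after aromatic residues and act on matrix proteins and peptide hormones. Neutrophils store cathepsin G, and cytotoxic lymphocytes store granzymes, which perforin lets into target cells, where granzyme B cleaves caspases and the protein Bid. In healthy lung these proteases are known from leukocytes, and epithelial cells are better known as their targets and as makers of the serpins that block them.

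The median log2 signal of the arrays lay between 5.29 and 5.32, a likeness that quantile normalization largely fixes. Across the genes tested, correlations between arrays ran from 0.9984 to 0.9987 within groups and from 0.9967 to 0.9971 between groups. Grhl2 itself had log2 values of 7.43, 7.43 and 7.60 with the shRNA, against 7.77 and 7.68 in the control. The difference was −0.24 (SE 0.065) and missed the threshold (limma adjusted p = 0.082), and it passed without shRNA replicate 3 (limma adjusted p = 0.047). Of 12 lung epithelial markers, 11 passed the filter on dim probe sets, all except Lamp3, a lamellar body protein gene. Krt18, a keratin of simple epithelia, averaged 12.13 in Grhl2 shRNA cells and 12.14 in control cells, Cdh1, E-cadherin, 11.30 and 11.37, and Nkx2-1, a master regulator of lung epithelium, 10.00 in both. Cdh1, Nkx2-1 and Lamp3 were named after their values were seen. Cdh1 lay below the controls on every shRNA array, at −0.07 (limma adjusted p = 0.32). Other members of the list differed in both directions without passing the test. Epcam, Sftpa1 and Sftpb, named after their values were seen, were higher, at 0.07, 0.06 and 0.04. Lamp3, not tested, lay above the controls on every shRNA array, at 0.11. The median difference over the 12 was −0.02. Sftpc, the surfactant protein that marks alveolar type II cells, had 6.15, 6.97 and 7.07 with the shRNA, against 7.17 and 6.80 in the control (difference −0.25, limma adjusted p = 0.63). Abca3, a lipid transporter of lamellar bodies, and Krt8, a keratin, were named after their values were seen. Both lay below the controls on every shRNA array, at −0.17 (limma adjusted p = 0.060) and −0.09 (limma adjusted p = 0.31), and Abca3 passed with a 50th percentile filter or a trended prior. Of the 11, only Sftpd, a surfactant collectin, passed the test, and it fell by 0.33 (SE 0.055, limma adjusted p = 0.021), a call that was lost without shRNA replicate 2 or either control. Of all genes tested, 3.52% passed as lower.

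RefSeq places 15 protein-coding genes between Cma1 and Gzmb, at the ends of the family. The order is Cma1, Cma2, Mcpt1, Mcpt2, Mcpt9, Mcpt4, Mcpt8, Ctsg, Gzme, Gzmd, Gzmg, Gzmn, Gzmf, Gzmc and Gzmb. Mcpt1 and Mcpt2 are neighbours, whereas Mcpt9 and Mcpt4 stand between Mcpt2 and Mcpt8. The promoter windows of Mcpt1, Mcpt4 and Mcpt8 are shown because Mcpt1 and Mcpt4 are close relatives with different values on the arrays and Mcpt8 differed most among the members with a window. RefSeq windows of build GRCm38.p6, running from 250 bases before the gene start to 50 after it, were found for 7 of the 8 genes, all except Mcpt2. Capitals mark the letters TATAAA.
Mcpt1, chr14:56017714-56018013, + strand: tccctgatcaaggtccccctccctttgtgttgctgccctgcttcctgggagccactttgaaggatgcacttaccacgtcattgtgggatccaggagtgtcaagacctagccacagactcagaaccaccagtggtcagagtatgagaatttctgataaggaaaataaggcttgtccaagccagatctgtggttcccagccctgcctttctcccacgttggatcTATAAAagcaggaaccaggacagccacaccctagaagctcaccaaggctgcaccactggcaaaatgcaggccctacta
Mcpt4, chr14:56062261-56062560, - strand: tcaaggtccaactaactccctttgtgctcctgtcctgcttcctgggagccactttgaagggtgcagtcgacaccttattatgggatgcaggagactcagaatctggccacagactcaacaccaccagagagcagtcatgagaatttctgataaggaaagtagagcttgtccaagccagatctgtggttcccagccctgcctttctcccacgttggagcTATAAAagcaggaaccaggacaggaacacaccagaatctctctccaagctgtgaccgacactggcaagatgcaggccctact
Mcpt8, chr14:56085148-56085447, - strand: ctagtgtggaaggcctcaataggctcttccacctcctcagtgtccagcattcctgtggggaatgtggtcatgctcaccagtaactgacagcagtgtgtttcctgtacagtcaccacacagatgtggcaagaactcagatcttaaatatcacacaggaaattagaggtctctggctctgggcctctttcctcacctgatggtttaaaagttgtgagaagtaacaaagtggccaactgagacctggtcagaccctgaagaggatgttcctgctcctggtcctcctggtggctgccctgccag

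The Mcpt1 and Mcpt4 windows were identical at 247 of 305 alignment columns, or 81.0%. The other 20 pairs of members lay between 43.0% and 51.4% identity. Both windows hold TATAAA upstream of the gene start, and the Ctsg window holds it on the opposite strand, starting at base −237. These letters occur anywhere in the window, on either strand, in 13.6% of 32851 mouse promoter windows. The Mcpt8 window holds none of the 4 sets of letters searched on both strands. These were TATAAA, the GATA-type letters AGATAA (11.2% of windows), and the Grainyhead-type letters AACNNGTT (4.2%). The last was the stricter form AACCGGTT (0.146%), every match of which is also a match of AACNNGTT. Among the 7 members, Cma1 alone held AACNNGTT, as AACAAGTT read on its own strand from base −163 counted from the gene start.

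Mcpt2, a protease of mucosal mast cells, was higher on every Grhl2 shRNA array and had the strongest signal of the 8 probe sets. Its log2 values were 7.51, 7.22 and 7.69 with Grhl2 shRNA, against 6.54 and 6.50 in the control. All 3 shRNA arrays lay above both control arrays, by at least 0.68. The means were 7.48 ± 0.24 (SD, n = 3) and 6.52 ± 0.03 (SD, n = 2), a difference of 0.96, or 1.94-fold. By size of rise it had rank 6 of 14979 genes tested. Its mean lay at the 62.8th percentile of all single-symbol probe sets with the shRNA and at the 53.3rd percentile in the control, ranks that also reflect how strongly each probe set binds its target. In bulk RNA, more cells that carry a transcript and more transcript per cell cannot be told apart.

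Mcpt8, a protease of basophils that is related to granzymes in sequence, differed almost as much and with less spread. It had 6.16, 6.14 and 6.16 with Grhl2 shRNA, against 5.33 and 5.20 in the control. The shRNA arrays lay within 0.02 of each other and at least 0.81 above the controls. The means were 6.15 ± 0.01 (SD, n = 3) and 5.26 ± 0.09 (SD, n = 2), a difference of 0.89, or 1.85-fold, which was rank 10 of the 14979. The signal was moderate, at the 50.4th percentile with the shRNA and the 41.5th in the control.

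Mcpt1, a chymase of mucosal mast cells, was dimmer and more variable. Its values were 4.45, 4.37 and 4.74 with Grhl2 shRNA, against 3.86 and 4.19 in the control. The groups did not overlap, but the gap between them was 0.18 while the 2 controls were 0.33 apart. The means were 4.52 ± 0.19 (SD, n = 3) and 4.03 ± 0.23 (SD, n = 2), a difference of 0.50. Leaving out control replicate 1 took it to 0.33 and leaving out control replicate 2 to 0.66. Its control mean lay below the filter on dim probe sets (4.22, the 25th percentile of single-symbol probe sets), so no fold is given, and it passed the filter because its shRNA values raised its mean. Within the shRNA group, Mcpt1, Mcpt2 and Mcpt8 had the same order, with replicate 3 highest and replicate 2 lowest. For Mcpt8 these values lay within 0.02 of each other. In the 2 controls the order of Mcpt1 was opposite to that of Mcpt2 and Mcpt8. Control replicate 1 was the lower for Mcpt1. It was slightly the higher for Mcpt2 (6.54 against 6.50) and the higher for Mcpt8 (5.33 against 5.20).

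The other 5 genes were at the dim end of the arrays, between 2.96 and 4.22 on every array, and none passed the filter. Their groups overlapped in every case. Mcpt4, the main chymase of connective tissue mast cells, had 3.98, 4.06 and 3.81 with Grhl2 shRNA, against 4.05 and 3.70 in the control, a difference of 0.07. Unlike Mcpt1, Mcpt2 and Mcpt8, Mcpt4 was lowest in shRNA replicate 3. Cma1, a mast cell protease of the alpha-chymase type, averaged 3.95 ± 0.04 with the shRNA (SD, n = 3) and 3.89 ± 0.08 in the control (SD, n = 2). Ctsg, cathepsin G of neutrophil granules, averaged 4.07 ± 0.13 with the shRNA and 4.02 ± 0.12 in the control.

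Of the granzymes, Gzmb, which cuts caspases in target cells, had 3.72, 3.59 and 3.57 with Grhl2 shRNA, against 3.53 and 3.59 in the control. Gzmc, a granzyme of activated cytotoxic T cells, had 3.09, 3.25 and 3.03 with Grhl2 shRNA, against 3.41 and 2.96 in the control, so that its controls spread more widely than its shRNA arrays. The differences were 0.07 for Gzmb and −0.06 for Gzmc, and leaving out a control moved that of Gzmc to 0.16 (control replicate 1) or −0.29 (control replicate 2). The means of these 5 genes lay at or below the 22.5th percentile of single-symbol probe sets in both groups.

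**Figure D1:**
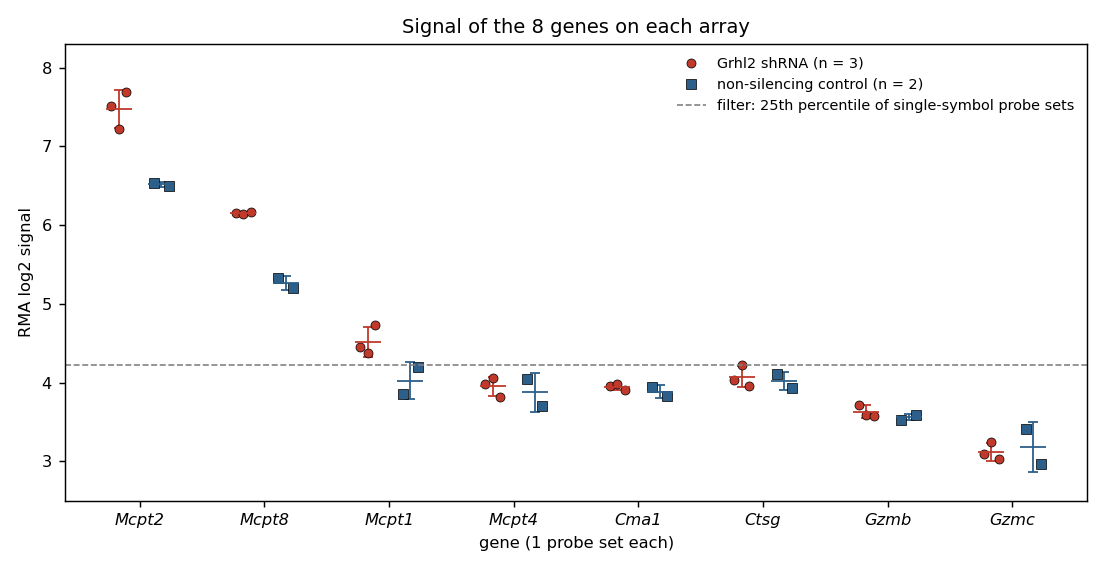
RMA log2 signal of the 8 genes on each array, with Grhl2 shRNA (circles, n = 3) left of the non-silencing control (squares, n = 2); horizontal marks are means, bars are SD and the dashed line is the filter at 4.22. Mcpt2, Mcpt8 and Mcpt1 do not overlap between the groups, while the 5 other genes overlap and lie at or under the filter.

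Counted over the 8, the groups did not overlap in 3, each higher with the shRNA, and the same held for 18.3% of all 19937 genes. Of the 3 members tested, Mcpt2 and Mcpt8 passed an adjusted p under 0.05 in limma and Mcpt1, which entered the fit through its shRNA values, did not, where 2.86% of the 14979 genes tested passed as higher and 6.38% passed in either direction. Because the rises of Mcpt2 and Mcpt8 chose the members, these counts follow in part from the choice and nothing is read from them. The median difference was 0.07 over the 8, against 0.003 over all genes without the filter. Without control replicate 1 or without control replicate 2, Mcpt2 no longer passed and Mcpt8 still did, while the count over all genes was 91 and 67 in place of 956. When all 34760 probe sets were tested together, no probe set passed in limma and 4515 had an unadjusted p under 0.05.

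**Figure D2:**
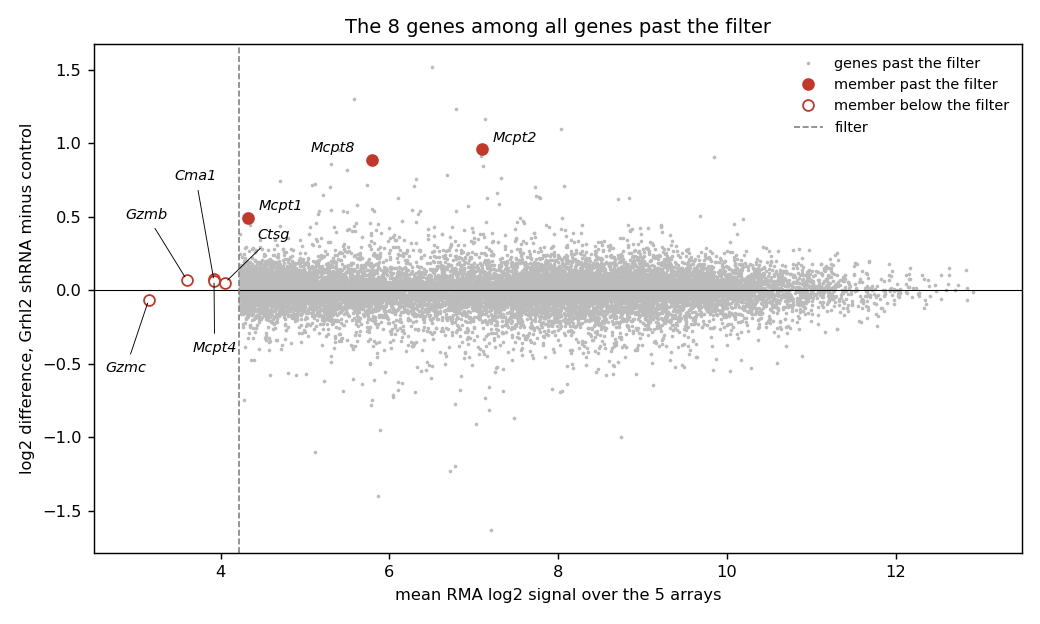
Difference between the group means (log2, Grhl2 shRNA minus control) against the mean log2 signal over the 5 arrays, for all 14979 genes tested (grey) and the 8 members (filled, past the filter; open, below it). Mcpt2 at 0.96 and Mcpt8 at 0.89 stand among the 13 genes (0.0868%) with a difference of at least 0.8, and the dim members lie near 0.

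Near-identical family members can share hybridisation, so the annotation of the probe sets was examined. The 15 family probe sets of the array comprised 13 with 1 symbol and 2 that were annotated to both Cma2 and Mcpt9. No value is given for Cma2 or Mcpt9. Among the 13, no pair listed the same transcript accession. The RefSeq span of Mcpt2 encloses Mcpt9. The probe sequences were not used here, and whether Mcpt9 or Mcpt1 transcripts bind the Mcpt2 probe set was not tested. The array order of Mcpt1 and Mcpt2, shared within the shRNA group and opposite in the controls, is given above. Mcpt8 had the order of Mcpt2 in both groups. The overlapping groups of their relative Mcpt4 are given above as well.

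In the rest of the locus no gene with a probe set of its own had a difference as large as that of Mcpt1, Mcpt2 or Mcpt8. Cma2 and Mcpt9, which have none, are not covered. Of the 5 further family genes with a probe set, all granzyme genes, only Gzme, named for that reason after its value was seen, passed the filter. It was at −0.07 (SE 0.083) and did not pass the test (limma adjusted p = 0.66). Gzmf had 3.63, 3.77 and 3.68 with the shRNA, against 3.81 and 3.81 in the control, a difference of −0.12 at a signal below the filter. Gzmn, also below it, had a difference of −0.08. The median of these 5 was −0.07.

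Genes that flank the family had differences between −0.18 and 0.11. Probe sets with 1 symbol measured 8 of the nearest 10 protein-coding genes, 5 on each side, and 6 of the 8 passed the filter. None of the 6 passed limma, and 2 had an unadjusted p under 0.05. The neighbour beside Cma1, Sdr39u1, had a difference of 0.06 (limma adjusted p = 0.75), and Atp12a beside Gzmb, a proton pump subunit, had 0.11 at a signal below the filter. The farthest from 0 of the 8 was Nfatc4, a transcription factor, at −0.18 (limma adjusted p = 0.12). The groups did not overlap in 1 of the 8 as higher, Atp12a, and in 3 as lower, Nfatc4 among them. Over all 19937 genes, 18.3% did not overlap as higher, and the share as lower is not given here.

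**Figure D3:**
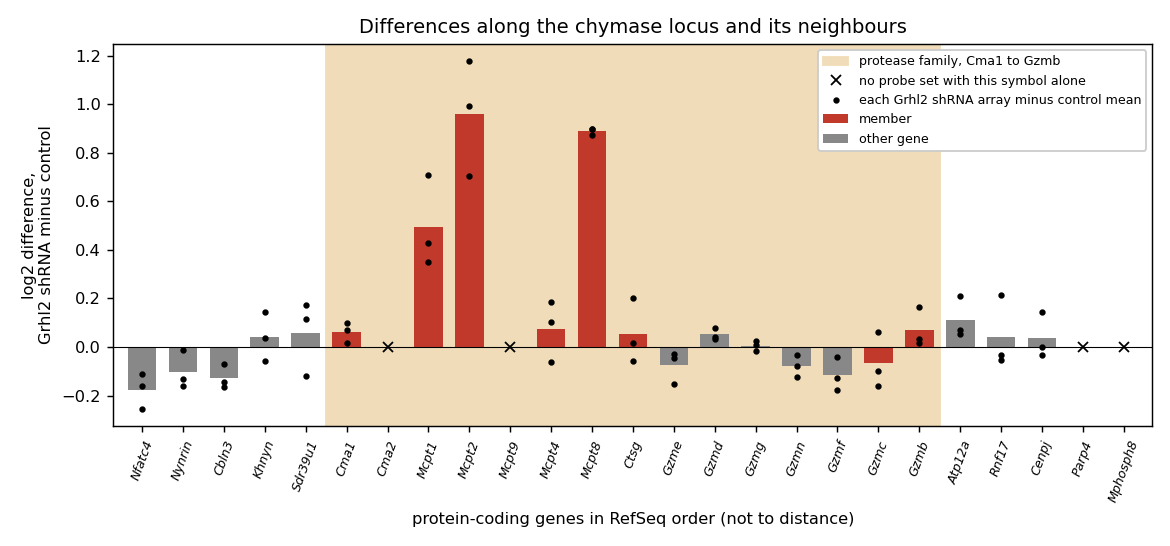
Difference between group means (bars, log2, Grhl2 shRNA minus control) for the 15 genes of the family and the 5 nearest protein-coding genes on each side, in RefSeq order; dots show each shRNA array minus the control mean, and crosses mark genes with no probe set of their own. The bars of Mcpt1, Mcpt2 and Mcpt8 reach 0.50, 0.96 and 0.89, while the other bars lie between −0.18 and 0.11.

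Granule proteases coded elsewhere in the genome showed no call. Of 13 listed tryptases, carboxypeptidase, granzymes and neutrophil enzymes, 12 had a probe set and 8 were tested; none passed limma, 0 had an unadjusted p under 0.05, and their median was −0.003 against 0.002 over all genes tested. The farthest from 0 were Gzma and Gzmk, a pair of tryptase-like granzymes, with differences of 0.12 and 0.10 at signals below the filter. Cpa3, the carboxypeptidase that mast cells store beside chymase, was at 2.80 ± 0.03 with the shRNA (SD, n = 3) and 2.85 ± 0.01 in the control (SD, n = 2). Prss34, a further protease of basophils and mast cells, was at 4.32 in both groups (limma adjusted p = 0.98). Cpa3, Prss34 and the defining markers of mast cells, basophils and lymphocytes named next were picked for what they define, after their values were seen.

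None of the mast cell and basophil markers tested passed. Levels in the list ran from near the bottom of the scale (Fcer1a and Ms4a2, below the filter and not tested) to bright (Cd63). Of 13 mast cell and basophil markers, 12 had a probe set, 7 were tested and none passed limma (1 had an unadjusted p under 0.05). The high-affinity IgE receptor chains Fcer1a and Ms4a2 were at 2.90 and 2.95 with the shRNA and 2.89 and 2.90 in the control, near the bottom of the scale. Kit, the stem cell factor receptor, was at 4.71 and 4.65 (limma adjusted p = 0.53). Fcer1g, a receptor chain shared by many leukocytes, had 4.93, 4.93 and 4.95 with the shRNA, against 4.81 and 4.75 in the control, with no overlap, but the difference of 0.16 missed the threshold (limma adjusted p = 0.074). Hdc, the enzyme that makes histamine, was at −0.12 (limma adjusted p = 0.45). The transcription factor genes Gata2 and Gata1, named after their values were seen, had moderate signals. Gata2 was at 5.71 with the shRNA and 5.77 in the control (limma adjusted p = 0.61), and Gata1 at 5.19 and 5.30 (limma adjusted p = 0.29). Gata1 lay below the controls on every shRNA array. Cd200r3 and Mrgprb1, named after their values were seen, did as well, at −0.09 and −0.12, both below the filter. The summed linear signal of the 12 ran from 1829 to 1888 with the shRNA and from 1767 to 1871 in the control, and most of it was Cd63, a tetraspanin also common in other cells, at 10.67 and 10.63.

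Lymphocyte and myeloid lists gave 1 call between them. Of 14 T and NK cell markers, 13 had a probe set, 6 were tested and none passed limma, with 0 at an unadjusted p under 0.05. Cd3e, a chain of the T cell receptor complex, was at 5.16 with the shRNA and 5.17 in the control, and Cd3g and Eomes were farthest from 0 at −0.14, below the filter, and 0.12 (limma adjusted p = 0.43). Eomes, a T-box factor, was the brightest of the list at 7.23 and 7.12. The summed signal ran from 343 to 372 with the shRNA and from 341 to 362 in the control. Of 12 neutrophil and macrophage markers, 11 had a probe set, 7 were tested and Tyrobp passed.

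Tyrobp, a signalling adaptor of myeloid and NK cells, had 4.64, 4.62 and 4.56 with Grhl2 shRNA, against 4.34 and 4.32 in the control. It rose by 0.28 (SE 0.044, limma adjusted p = 0.020) at a low signal, and the call was lost when either control, shRNA replicate 1 or shRNA replicate 2 was left out. Lyz2, lysozyme, was at 0.17 (limma adjusted p = 0.093). Csf3r and S100a8, named after their values were seen, lay below the controls on every shRNA array. Csf3r was at −0.15 (limma adjusted p = 0.12), and S100a8 at −0.03 with a signal below the filter. The median difference over the 11 was 0.003. Cd68, the brightest of the list, was at 6.11 with the shRNA and 6.17 in the control. The summed signal of the 11 ran from 251 to 265 with the shRNA and from 255 to 257 in the control. No part of these marker signals in the Mcpt2 and Mcpt8 values was tested.

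The genes that store and activate granule proteases had strong signals in both groups, except for serglycin. Srgn, serglycin, the proteoglycan on which the proteases are packed, was at 2.90 with the shRNA and 2.85 in the control, below the filter. Ctsc, cathepsin C, which activates them, was bright at 10.72 and 10.59 (difference 0.12, limma adjusted p = 0.22). Both were picked for their role after their values were seen. Of 12 listed genes, 11 were tested, 1 fell and none rose. Stx11, a syntaxin needed for granule release in lymphocytes, had 7.28, 7.26 and 7.16 with the shRNA, against 7.47 and 7.48 in the control, and fell by 0.24 (SE 0.050, limma adjusted p = 0.037). Its call was lost whichever array was left out. Rab27b, a GTPase of secretory granules, was at −0.17 (limma adjusted p = 0.075). The list's median among genes tested was −0.06.

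Both inhibitors of granule proteases that passed the test were lower. Of 15 listed, 12 had a probe set and 7 were tested; 2 fell, none rose and 5 did not pass. Serpinb9, the intracellular serpin that blocks granzyme B, had 6.95, 6.86 and 6.86 with Grhl2 shRNA, against 7.32 and 7.33 in the control. All shRNA arrays lay below both controls, and it fell by 0.43 (SE 0.046, limma adjusted p = 0.0060). Its relative Serpinb9b had 5.00, 5.02 and 5.12 with the shRNA, against 5.42 and 5.25 in the control, and fell by 0.29 (SE 0.064, limma adjusted p = 0.045). Serpinb9 lost its call without control replicate 1 or 2 and kept it without any 1 shRNA array, whereas Serpinb9b lost its call whichever array was left out. Serpinb9b also missed the threshold with no filter and with the replicate block.

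The serpin list holds close paralogs as well, and not every member followed. Serpinb6b, which in the mouse inhibits granzyme A and was named after its value was seen, had 8.60, 8.27 and 8.31 with the shRNA, against 8.78 and 8.79 in the control. Its difference of −0.39 missed the threshold (SE 0.095, limma adjusted p = 0.057), and it passed without shRNA replicate 1, with the filter at the 50th percentile, with a trended prior and with arrays shifted to one median. Serpinb6a, also named after its value was seen, was at −0.01 (limma adjusted p = 0.97). Over the 7 tested, the median was −0.08 against 0.002 over all genes tested. The summed signal of the 12 ran from 1224 to 1271 with the shRNA and from 1366 to 1434 in the control.

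Among substrates and receptors of these proteases, 12 of 16 listed genes were tested, 1 fell and none rose. F2r, the protease-activated receptor that thrombin cleaves, had 9.23, 9.22 and 9.21 with the shRNA, against 9.51 and 9.55 in the control, and fell by 0.31 (SE 0.040, limma adjusted p = 0.011). That call was lost without control replicate 1 or 2. Prkdc, a DNA repair kinase that granzymes cut, was at −0.22 (limma adjusted p = 0.11). The median of the 12 was −0.09.

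**Figure D4:**
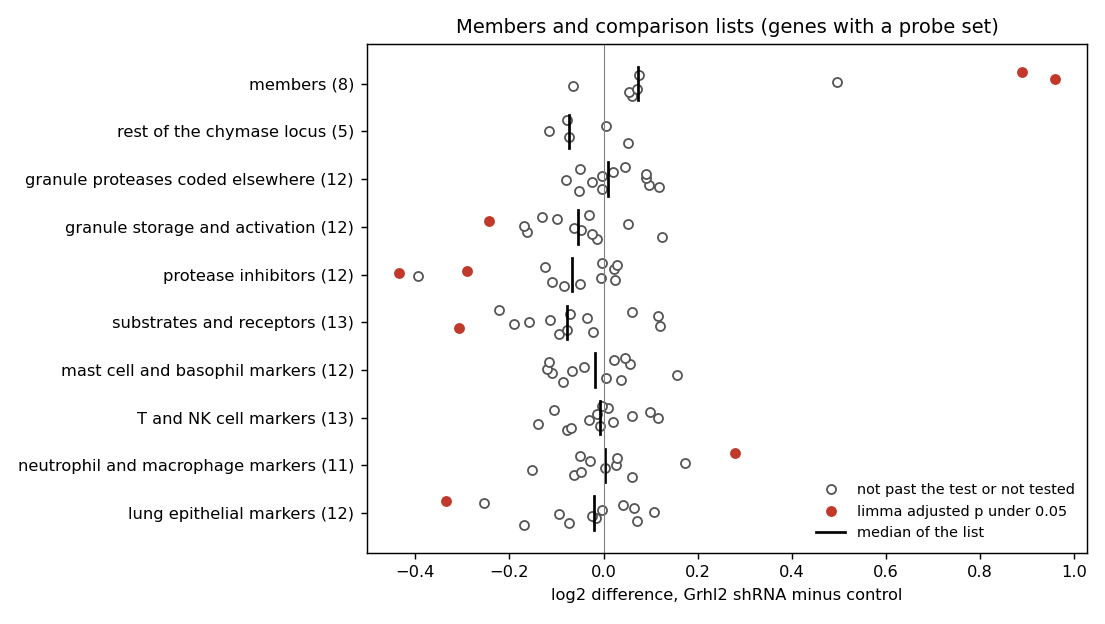
Difference between group means (log2, Grhl2 shRNA minus control) for every gene with a probe set in the members and 9 comparison lists; filled dots passed limma at an adjusted p under 0.05, open dots did not pass or were below the filter, and black bars are list medians. Mcpt2 and Mcpt8 lie far right of every gene in the other lists, of which the highest is Tyrobp at 0.28 and the lowest Serpinb9 at −0.43.

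The genes nearest to Mcpt2 in their values on the 5 arrays were found by the root-mean-square distance between log2 values, each gene centred on its own control mean. Mcpt8 was the nearest of the 14979 genes tested, at a distance of 0.15. Next came Tek, the angiopoietin receptor, at 0.17 and Ptn, the growth factor pleiotrophin, at 0.17. For Mcpt8 the nearest were Cd80, which co-stimulates T cells, at 0.05, Abcg2, a drug efflux transporter, at 0.08 and Tek at 0.11. Mcpt2 was not among the 5 genes nearest to Mcpt8. With 5 arrays in 2 groups, such a distance mostly finds genes with a rise of the same size. Mcpt2 and Mcpt8 were both chosen for large rises on these same arrays, so their closeness follows in part from the choice and nothing is read from it. Cd80 stood 0.80, 0.90 and 0.87 above its control mean on the shRNA arrays, against 0.90, 0.87 and 0.90 for Mcpt8.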

How the data were processed

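The deposited values are log2 signals that the authors obtained by RMA (background correction, quantile normalization, probe summary); per the submitters' processing notes the software was Affymetrix Expression Console. Its version, annotation and any filters are not given, and the log base was taken from the method and the values' range. Labelling used 300 ng of total RNA per array, per the labels. Probe sets were named from GEO's platform annotation, with 21640 of 34760 holding exactly 1 symbol. Those with a mean below 4.22 (25th percentile) were left out, and the brightest stood for each of 14979 genes. Groups were compared with limma 3.58.1 in R 4.3.3 (lmFit, eBayes, two-sided, Benjamini-Hochberg over all genes, threshold 0.05). The procedure was checked on arrays simulated from limma's own fitted variance prior. Such a check cannot show how well that prior holds for these arrays. The number of arrays (3 against 2) limits the precision, and p-values measure the spread between transductions of one line. Members and lists were chosen with earlier results of these data known. Named were Grhl2, all members, up to 4 called genes per list or else the 2 largest differences, the brightest marker of each marker list, the flanking genes and the 3 genes nearest to Mcpt2 and to Mcpt8; genes named outside this rule are marked in the text. Promoter windows were aligned globally with Biopython 1.88. Alternatives covered the filter, variance prior, scale, probe set choice, replicate number and each array left out.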

Additional observations from a re-analysis of the deposited data

How the results depend on the processing

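The 956 calls over all genes became 418 without a filter, 1708 with the filter at the 50th percentile, 2034 with a trended robust prior, 0 with all 34760 probe sets together (4515 at an unadjusted p under 0.05) and 172 with the replicate number as a block, and ran from 67 to 493 with 1 array left out. The members' count of 2 became 3 with the trended robust prior, where Mcpt1, which entered the fit through its shRNA values, passed as well. With the 50th percentile filter, which leaves out Mcpt8 and Mcpt1, it became 1, and with all probe sets together 0. It stayed at 2 with any 1 shRNA array left out. It was 2 with the replicate block. The samples share replicate numbers only: deviations of same-numbered arrays correlated at 0.05 and 0.022.

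The storage and activation list (1 call) gave 0 without a filter, with all probe sets, with the block and with any array left out, and 2 with the 50th percentile filter or the trended prior. The inhibitors (2 calls) gave 3 with the trended prior or with arrays shifted to one median, where Serpinb6b passed as well, 1 without a filter, 0 with all probe sets and 1 with the block, and from 0 to 2 with 1 array left out. Substrates and receptors (1 call) gave 3 with the 50th percentile filter or the trended prior, and lung epithelial markers (1 call) gave 2 under the same settings. Each gave 0 with all probe sets or the block, and from 0 to 1 with 1 array left out. Neutrophil and macrophage markers (1 call) gave 0 with the 50th percentile filter, all probe sets or the block, and from 0 to 1 with 1 array left out. The other 4 lists (rest of the locus, granule proteases elsewhere, mast cell and basophil markers, T and NK cell markers) gave 0 calls in limma under all settings, and 1 gene of these lists had an unadjusted p under 0.05 in the reported fit.

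Grhl2 stayed at −0.24 and passed with the 50th percentile filter (limma adjusted p = 0.032) and the trended prior (limma adjusted p = 0.023), and ran from −0.29 to −0.19 with 1 array left out. With 1 array left out, the difference ran from 0.85 to 1.09 for Mcpt2, 0.83 to 0.95 for Mcpt8, 0.33 to 0.66 for Mcpt1, 0.0035 to 0.12 for Cma1 and 0.02 to 0.10 for Gzmb. It changed sign for Mcpt4 (−0.10 to 0.25), Ctsg (−0.03 to 0.14) and Gzmc (−0.29 to 0.16). Where 1 control array remains, it is assumed to vary like the shRNA arrays. Every member has 1 single-symbol probe set, so taking the mean of a gene's probe sets left the members' values unchanged. In that setting 2 of the 3 members tested passed, and 937 genes were called over all genes. The causes of these changes were not tested. The number of arrays limits the precision, and 5 of the 8 members lie below the filter.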
